A study of Mus musculus with 4 samples.

Results

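The genes described here encode the machinery with which a cell copies its DNA and divides. They are 43 genes, listed by symbol for their known function, with earlier results of these data known, of 37411 genes counted per library. They were grouped by role into licensing and helicase (10 genes), S-phase synthesis (5), G1 cyclins and E2F (6), mitotic entry (7), chromosomes and spindle (13) and mitotic exit (2). All 43 passed the filter on low counts, as did 13571 genes in all.

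RNA was sequenced from 4 primary cultures, 2 from αKO mice and 2 from WT mice. αKO mice lack the nuclear receptor PPARα in every tissue, through a Neo cassette in a coding exon of Ppara, so that the cultures differ in genotype in every cell type that they hold. Each culture was the osteocytic fraction of the femur, released by sequential collagenase digestion and then grown, and the labels name no treatment. The labels give mice aged 5 months, 6 days of growth and the strain C57BL/6 for all 4 libraries, while the study's methods give an older age, a longer culture and the 129S4/SvJae strain for αKO, and the authors' comparison names DMSO as the condition of both genotypes. The labels call the libraries biological replicates without saying which animals they came from, so p-values measure only the spread between these 4 libraries. The comparison of αKO with WT asks what the loss of PPARα does to the RNA of these cells.

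A cell that divides passes from G1 to S phase when D-type and E-type cyclins, with their kinases, switch off the RB proteins and free the E2F factors, which then turn on the genes of DNA synthesis. Origins of replication are licensed in G1 by loading of the MCM helicase, and mitosis follows when cyclin B and CDK1 become active and a second wave of genes, bound by the MuvB complex with B-MYB and FOXM1, is made. Osteocytes are the end stage of the osteoblast lineage and are known as cells that no longer divide, so cell cycle RNA is not a known mark of an osteocyte. In bulk RNA, fewer cycling cells and less of this RNA per cell cannot be told apart.

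Total counts ran from 25136628 to 27496137 per library, and mitochondrial genes took 0.0676% to 0.272% of them. Ppara had 15 and 9 counts in αKO replicates 1 and 2, and 16 and 13 in WT, which at this depth do not check the genotype. The defining osteocyte markers were scarce: Sost and Fgf23 had 0 counts in all 4 libraries and Dmp1 had 23 to 455. By contrast, 20 macrophage markers summed to 32850 and 28350 CPM (the counts of a gene scaled to a common library size) of the library total in αKO and to 24090 and 13510 in WT, and 15 osteoblast markers to 26640 and 24390 in αKO and 33970 and 29270 in WT. Few genes made up much of both sums. Lyz2, a macrophage marker of the list, was at 8613 to 19110 CPM. Of the osteoblast markers, Spp1 was at 10560 to 14430 CPM and Col1a1 and Col1a2 at 3003 to 5876. Runx2, Sp7, Dlx5 and Bglap were at no more than 81.73 CPM in any library. The summed level of osteocyte markers was 303 to 639.2 CPM, of osteoclast markers 649.5 to 1218 and of stromal markers 2844 to 5042. Fam20c (143.7 to 367.2 CPM) and Pdpn (31.27 to 205.8 CPM) made up most of the osteocyte sum. Endothelial and neutrophil markers summed to at most 14.88 and 11.14 CPM in a library, and B cell, T cell, erythroid and mast cell markers to at most 1.129, 1.713, 0.7957 and 1.1.

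The promoters of the members carry, in different shares, the letters read by the factors that time their use. Windows of RefSeq (build GRCm38.p6), each 300 bases long from 250 bases before to 50 bases after a transcript start, were available for 33 of the 43 members, as 35 windows. They were searched on both strands for the E2F letters (TTTCCCGC, TTTCGCGC, TTTGCCGC and TTTGGCGC), for the cell cycle genes homology region or CHR (TTTGAA and TTCGAA), which the MuvB complex reads, and for the CCAAT box of NF-Y. E2F letters stood in 7 of 35 windows (20%), against 2.26% of all 32851 windows. Of these 7, 6 belonged to the 9 windows of licensing and helicase genes and the other to a gene of mitotic entry. CHR letters stood in 16 windows (45.7%, against 19.2% of all), of which 4 were among the 5 windows of mitotic entry, 7 among the 10 of chromosomes and spindle and none among the 9 of S-phase synthesis and G1 genes. CCAAT letters stood in 26 windows (74.3%, against 37.4%). The windows of 3 members are shown because they display these patterns, and because Mcm5 and Ccnb2 separated the genotypes below while Top2a did not. Capitals mark the matches, and a match on the minus strand reads ATTGG for CCAAT and TTCAAA for CHR. In Mcm5 (chr8:75109259-75109558, plus strand) the capitals before the 3 CCAAT boxes are a pair of E2F matches, one on each strand, that overlap. Ccnb2 (chr9:70421505-70421804, minus strand) has 2 CHR and 3 CCAAT matches, and Top2a (chr11:99024140-99024439, minus strand) has 4 CHR and 6 CCAAT matches. A match is a description of the letters and does not show binding.
Mcm5: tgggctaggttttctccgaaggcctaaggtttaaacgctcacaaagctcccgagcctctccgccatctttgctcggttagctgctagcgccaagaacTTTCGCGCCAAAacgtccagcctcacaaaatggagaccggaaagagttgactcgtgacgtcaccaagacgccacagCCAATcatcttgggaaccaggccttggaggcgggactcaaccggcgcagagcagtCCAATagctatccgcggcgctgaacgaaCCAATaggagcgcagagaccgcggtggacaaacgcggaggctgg
Ccnb2: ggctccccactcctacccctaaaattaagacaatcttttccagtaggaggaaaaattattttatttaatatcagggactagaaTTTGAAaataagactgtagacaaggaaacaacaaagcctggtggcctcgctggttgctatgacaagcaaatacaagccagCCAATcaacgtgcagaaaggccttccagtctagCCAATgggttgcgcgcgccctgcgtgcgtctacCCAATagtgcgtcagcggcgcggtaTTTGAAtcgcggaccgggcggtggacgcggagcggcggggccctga
Top2a: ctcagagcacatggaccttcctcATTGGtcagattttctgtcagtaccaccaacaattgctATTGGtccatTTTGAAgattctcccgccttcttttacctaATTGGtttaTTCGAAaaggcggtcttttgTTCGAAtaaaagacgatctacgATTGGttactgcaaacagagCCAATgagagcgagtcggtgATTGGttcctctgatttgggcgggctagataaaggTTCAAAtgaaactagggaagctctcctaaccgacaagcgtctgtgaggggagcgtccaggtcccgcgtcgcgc

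Levels of single genes are in CPM scaled by the trimmed mean of M values (TMM), and each fold change is αKO over WT on the log2 scale, from edgeR's quasi-likelihood test. Of the 43 members, 39 (90.7%) had a fitted log2 fold change above 0, against 49.2% of all genes tested, and their median was 0.39, against -0.01 for all genes. None passed an adjusted p of 0.05 (Benjamini-Hochberg over all genes, lowest 0.902), and neither did any other gene (0% of 13571, with 732 at an unadjusted p under 0.05). At an unadjusted p under 0.05, 3 members were higher in αKO (Mcm5, Tk1 and Aurkb, 6.98%), against 2.81% of all genes, and 0 were lower, against 2.59% of all genes. DESeq2, run on the same counts, called 50 genes (0.368%) at an adjusted p under 0.05, none of them a member. With it 3 members (6.98%) had an unadjusted p under 0.05, against 6.2% of all genes. In 17 members (39.5%) both αKO libraries lay above both WT libraries, against 17.1% of all genes, and in 2 (Rrm2 and Ccnd2) both lay below, against 16% of all genes. The standard errors of the members' log2 fold changes ran from 0.288 to 0.655, with a median of 0.37.

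Much of this excess lay in αKO replicate 1, which was the highest library in 34 of the 43 members (79.1%), against 15.7% of all genes tested. In no member was it the lowest, against 12.4% of all genes tested. αKO replicate 1 was above αKO replicate 2 in 39 members, above WT replicate 1 in 40 and above WT replicate 2 in 35. αKO replicate 2 was above WT replicate 1 in 24 members and above WT replicate 2 in 31, which is a more even division. Averaged over the members, log2 CPM deviated from the gene mean by 0.403 and -0.018 in αKO replicates 1 and 2 and by -0.147 and -0.237 in WT replicates 1 and 2. When αKO replicate 1 was left out, 25 of 43 members had a log2 fold change above 0 and the median was 0.18. Without αKO replicate 2 the median was 0.64. It was 0.46 when WT replicate 1 was left out, and 0.27, with 28 of 43 above 0, when WT replicate 2 was. The macrophage markers had the same order of libraries but other gaps, with mean deviations of 0.690, 0.586, -0.007 and -1.269. In them the αKO replicates were close and WT replicate 2 was far below WT replicate 1. All 20 had a log2 fold change above 0 (median 0.90), while 14 of 15 osteoblast markers had one below 0 (median -1.15). Of 6 osteocyte markers tested 5 had one below 0 (median -1.65, and -1.22 to -2.32 without each library in turn). Without WT replicate 1 the macrophage median was 1.62 and the osteoblast median -0.40 with 5 of 15 above 0, and when WT replicate 2 was left out the macrophage median was 0.48 with 18 of 20 above 0. The part of these cell types in the members' differences was not tested.

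**Figure D1:**
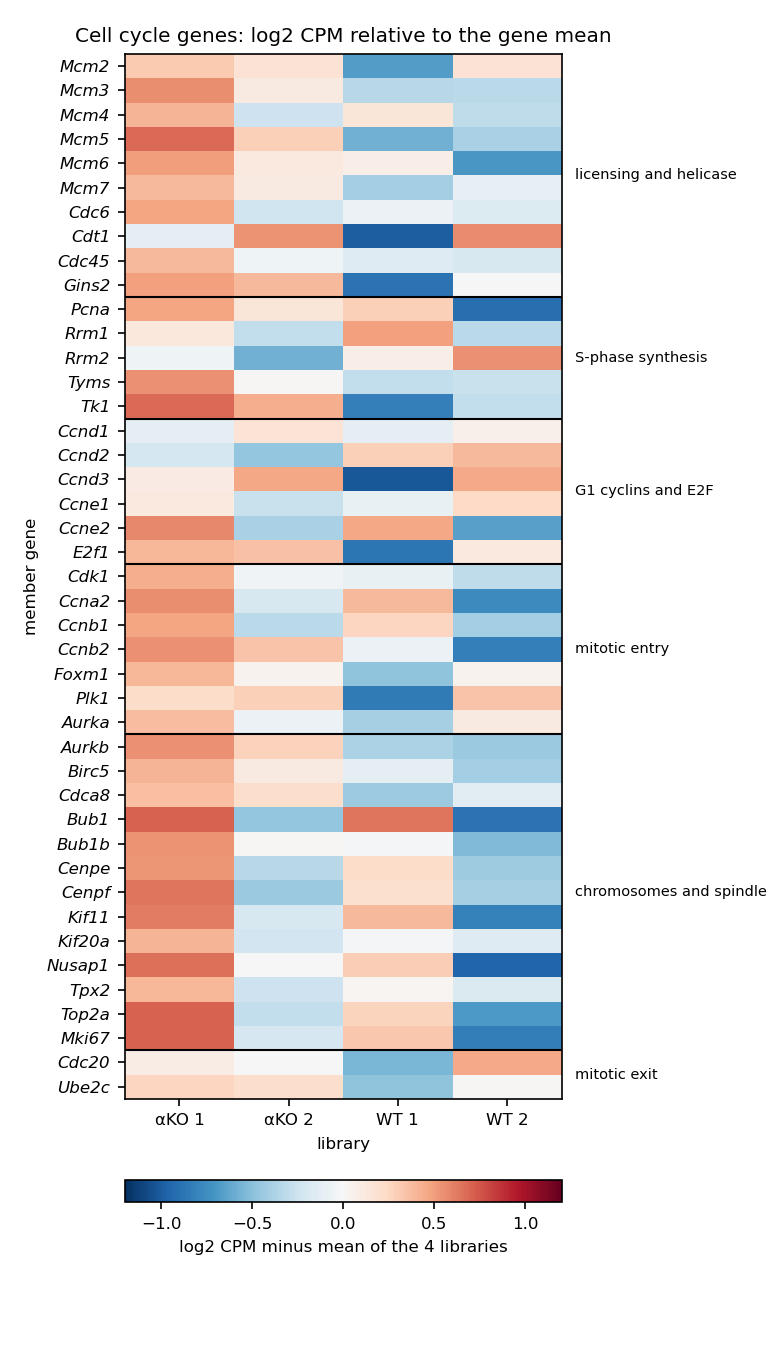
Colour map of log2 CPM minus the mean of the 4 libraries for each of the 43 members (rows, grouped by role) in αKO replicates 1 and 2 and WT replicates 1 and 2 (columns). The column of αKO replicate 1 holds the highest value in 34 rows and the lowest in 0.

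**Figure D2:**
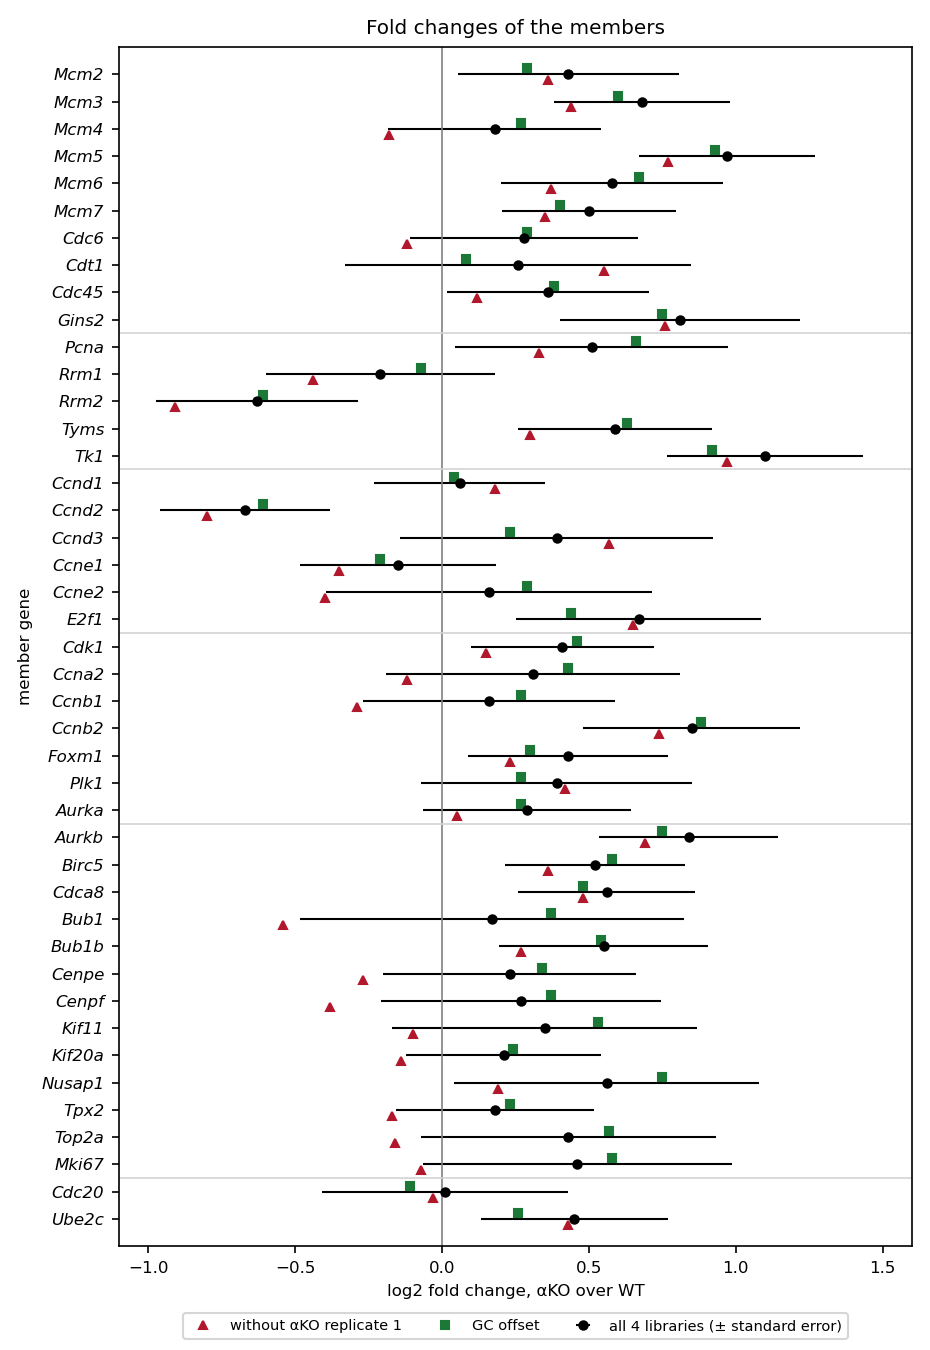
Fitted log2 fold change (αKO over WT) of each member with all 4 libraries (circles, bars are 1 standard error), without αKO replicate 1 (triangles) and with the GC offset (squares), ordered by role. With all libraries 39 of 43 circles lie above 0, and without αKO replicate 1 25 of 43 triangles do.

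The second difference among the libraries followed the GC content of the transcripts and separated replicates of the same genotype. Across the 43 members, GC content (36.3% to 58.8%) had a Spearman's rho of -0.892 (Pearson's r -0.885) with the log2 ratio between WT replicates 1 and 2, and of -0.835 (r -0.823) with that between αKO replicates 1 and 2. The same pattern ran through all 13167 genes with a known GC content, with rho of -0.730 and -0.602. These points share the same 4 libraries, so the values are descriptive. For the log2 fold change of αKO over WT the rho across members was 0.318 (r 0.30). In the 14 members of lowest GC content, among them Ccne2, Bub1, Top2a and Mki67, the median log2 ratio was 1.03 between the WT replicates and 0.80 between the αKO replicates, and in none of them did both αKO libraries lie above both WT libraries. The 15 members in the middle had median ratios of 0.09 and 0.44, and 9 of them had both αKO libraries above both WT libraries. In the 14 of highest GC content, among them Cdt1, Ccnd3, E2f1 and Plk1, the ratios were -0.69 and 0.12, and the number was 8. Over all genes tested, the share with both αKO libraries above both WT libraries was 17.1%. None of the 17 members whose αKO libraries lay above WT was thus among the 14 of lowest GC content. An offset that removed each library's trend with GC content, chosen after the data were seen, left 38 members above 0, against 49.5% of all genes, with a median of 0.37. With it 10 members were higher at an unadjusted p under 0.05 (Mcm5, Mcm6, Gins2, Tyms, Tk1, Ccnb2, Aurkb, Birc5, Cdca8 and Nusap1), against 4.74% of all genes, and 0 were lower, against 6.68%. No gene passed the adjusted p with the offset (0% of all genes).

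**Figure D3:**
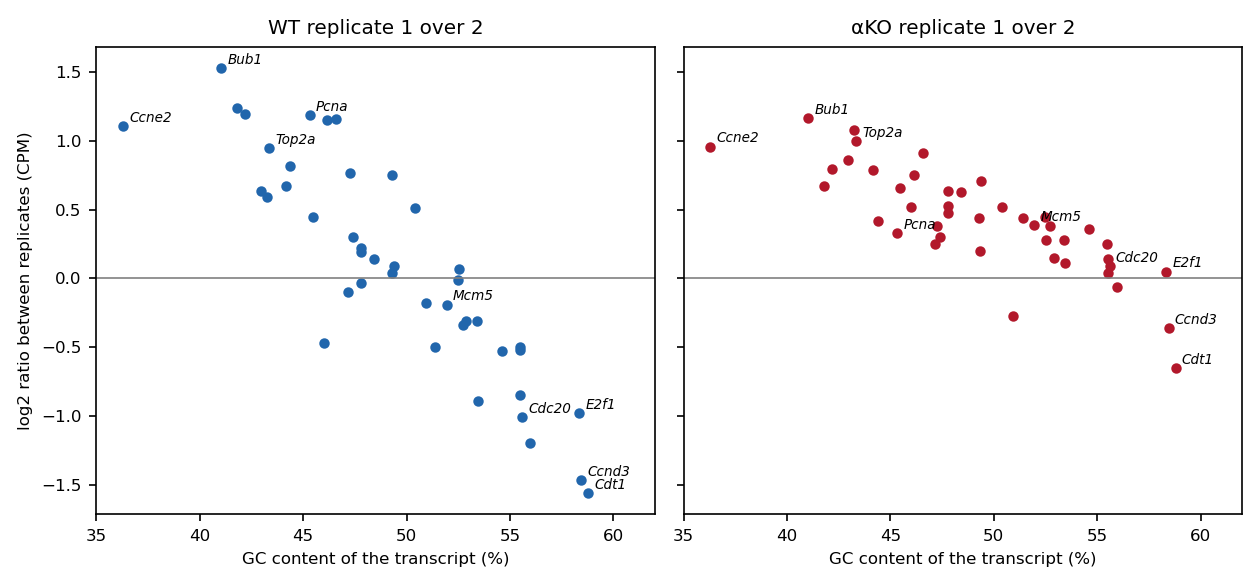
Log2 ratio of CPM between replicates 1 and 2 of WT (left) and of αKO (right) against the GC content of the transcript in percent, each point a member. Spearman's rho is -0.892 on the left and -0.835 on the right, from Bub1 among the highest ratios to Cdt1 at the lowest.

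All 10 licensing and helicase genes had a log2 fold change above 0 (0.18 to 0.97, median 0.47), as did 9 on the scale of TPM, a unit that corrects for gene length, where Mcm4 was below. In 7 of them (70%) both αKO libraries were above both WT libraries, against 17.1% of all genes. Together the 10 genes summed to 997.3 and 818.5 CPM of the library total in αKO and to 669.8 and 646.4 in WT. Their median was 0.37, 0.62, 0.43 and 0.63 without αKO replicates 1 and 2 and WT replicates 1 and 2 in turn. Mcm5 (chr8:75109569-75128439, GRCm38) is a subunit of the hexameric MCM helicase, which unwinds DNA at the fork. It was at 156.6 and 119.5 CPM in αKO and at 65.66 and 74.9 CPM in WT (138 ± 26.3 and 70.3 ± 6.54, SD, n = 2 each). The αKO libraries did not overlap the WT libraries, and the log2 fold change was 0.97 (standard error 0.30, a 1.96-fold level, edgeR adjusted p = 0.902). Without each library in turn it was 0.77 to 1.17. Mcm3, another subunit, was at 157.8 and 115.6 CPM in αKO and at 85.25 and 85.64 CPM in WT. The WT replicates were nearly equal, and the log2 fold change was 0.68 (standard error 0.30, edgeR adjusted p = 0.938). Mcm6, the subunit of this group highest in TPM, was at 283.9 and 217.6 CPM in αKO and at 211.8 and 123.7 CPM in WT. αKO replicate 2 was barely above WT replicate 1, and the log2 fold change of 0.58 (standard error 0.378, edgeR adjusted p = 1) moved to 0.21 when WT replicate 2 was left out and to 1.04 when WT replicate 1 was.

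The other members of the group were the helicase subunits Mcm2, Mcm4 and Mcm7, the loading factors Cdc6 and Cdt1, which bring the helicase to the origin, and Cdc45 and Gins2, which join it to form the active helicase. They ran from 14.68 to 113.1 CPM. The WT replicates of Cdt1 lay farther apart on the log2 scale than those of any other member. It was at 35.17 and 55.19 CPM in αKO and 19.1 and 56.43 CPM in WT, so that WT replicate 2 was above both αKO libraries. Gins2 was at 38.07 and 35.38 CPM in αKO and at 14.68 and 27.21 CPM in WT. Of its exon bases 67.3% lie under Gse1 on the other strand, and the strand setting of the counting is not given in the sources used here, so its counts are uncertain. Of Mcm7, 23.3% of the 50-base words of its transcripts also occur in other genes, most of all in the pseudogene Gm5487.

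The S-phase synthesis genes were divided. Tk1, Tyms and Pcna were above WT in the fitted values, and both ribonucleotide reductase subunits, Rrm1 and Rrm2, were below. Tk1 (chr11:117815526-117826092), thymidine kinase of the salvage of thymidine, was at 78.27 and 65.89 CPM in αKO and at 27.68 and 39.72 CPM in WT (72.1 ± 8.76 and 33.7 ± 8.52, SD, n = 2 each). Both αKO libraries were above both WT libraries. The log2 fold change of 1.10 (standard error 0.335, a 2.14-fold level, edgeR adjusted p = 0.902) was the highest of the 43 members, and was 0.88 to 1.34 without each library in turn. Rrm2 (chr12:24708241-24714146), the small subunit of the enzyme that makes deoxyribonucleotides, went the other way. It was at 127.4 and 88.68 CPM in αKO and at 140 and 194.2 CPM in WT, so that both αKO libraries were below both WT libraries. The log2 fold change was -0.63 (standard error 0.344, edgeR adjusted p = 0.985), and -0.91 to -0.38 without each library in turn. Rrm2 thus did not share the direction of Tk1, although both supply deoxyribonucleotides. Rrm1, the large subunit, was at 322.6 and 241.9 CPM in αKO and at 416.6 and 236.6 CPM in WT, where the WT replicates enclosed both αKO libraries.

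Pcna, the sliding clamp that holds the polymerase on DNA, had the highest level of the 43 members per length by the mean of the 4 libraries, with 475.7 and 366 TPM in αKO and 484.9 and 193.4 TPM in WT. In CPM it was at 312.4 and 248.2 in αKO and at 274.7 and 120.3 in WT. WT replicate 1 lay between the αKO libraries, and only WT replicate 2 stood apart. The log2 fold change of 0.51 (standard error 0.465, edgeR adjusted p = 1) moved to -0.01 when WT replicate 2 was left out and to 1.24 when WT replicate 1 was. A share of 19.1% of the 50-base words of Pcna also occurs in Pcna-ps2. Tyms, thymidylate synthase, was at 61.54 and 42.61 CPM in αKO and at 34.31 and 34.99 CPM in WT.

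The G1 cyclins and E2f1 had no common direction, with log2 fold changes of -0.67 to 0.67 and a median of 0.11. Their summed level was 1072 and 1133 CPM of the library total in αKO and 1277 and 1426 in WT, and this was the only group of the 6 in which both αKO sums lay below both WT sums. Without Ccnd2 the sums were 646.7 and 764.6 in αKO and 619.7 and 746.1 in WT, which overlap. Ccnd2 (chr6:127125162-127152193), cyclin D2, was at 445.5 and 373.8 CPM in αKO and at 626.9 and 672.2 CPM in WT (410 ± 50.7 and 650 ± 32.1, SD, n = 2 each). Both αKO libraries were below both WT libraries, and replicates of a genotype lay closer together than the genotypes. The log2 fold change was -0.67 (standard error 0.289, a 1.59-fold lower level, edgeR adjusted p = 0.932), the lowest of the 43 members, and -0.80 to -0.53 without each library in turn. Ccnd1, cyclin D1, was at 477 and 573.8 CPM in αKO and at 474 and 535.2 CPM in WT. These values overlapped, and the log2 fold change was 0.06 (standard error 0.292, edgeR adjusted p = 1), which gives no detectable difference at this replication. With library sizes alone it was -0.02. Of its exon bases 23.4% lie under LTO1 on the other strand. Ccnd1 and Ccnd2 ranked next to Pcna per length by the mean of the 4 libraries, at 294.8 to 349.3 TPM and at 124.7 to 250.3 TPM.

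Ccnd3, cyclin D3, was at 84.26 and 108.3 CPM in αKO and at 38.77 and 107.7 CPM in WT. Only WT replicate 1 was low, and the log2 fold change of 0.39 (standard error 0.534, edgeR adjusted p = 1) moved to -0.14 when WT replicate 1 was left out and to 1.28 when WT replicate 2 was. The E-type cyclins, which act with CDK2 at the entry to S phase, showed no separation either. Ccne1 was at 36.01 and 27.72 CPM in αKO and at 31.2 and 39.38 CPM in WT, with a log2 fold change of -0.15 (standard error 0.332, edgeR adjusted p = 1) that was 0.04 without αKO replicate 2. Ccne2 was at 26.64 and 13.68 CPM in αKO and at 24.64 and 11.35 CPM in WT, so that replicates 1 were high and replicates 2 low in both genotypes. Its log2 fold change of 0.16 (standard error 0.554, edgeR adjusted p = 1) was -0.40 without αKO replicate 1 and -0.33 without WT replicate 2. Ccne2 had the lowest GC content of the members. E2f1, the factor that drives transcription at the entry to S phase, was at 53.73 and 51.97 CPM in αKO and at 22.36 and 44.11 CPM in WT. The αKO replicates were close and above both WT libraries, which differed more, and the log2 fold change was 0.67 (standard error 0.417, edgeR adjusted p = 1), with 0.28 without WT replicate 1.

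**Figure D4:**
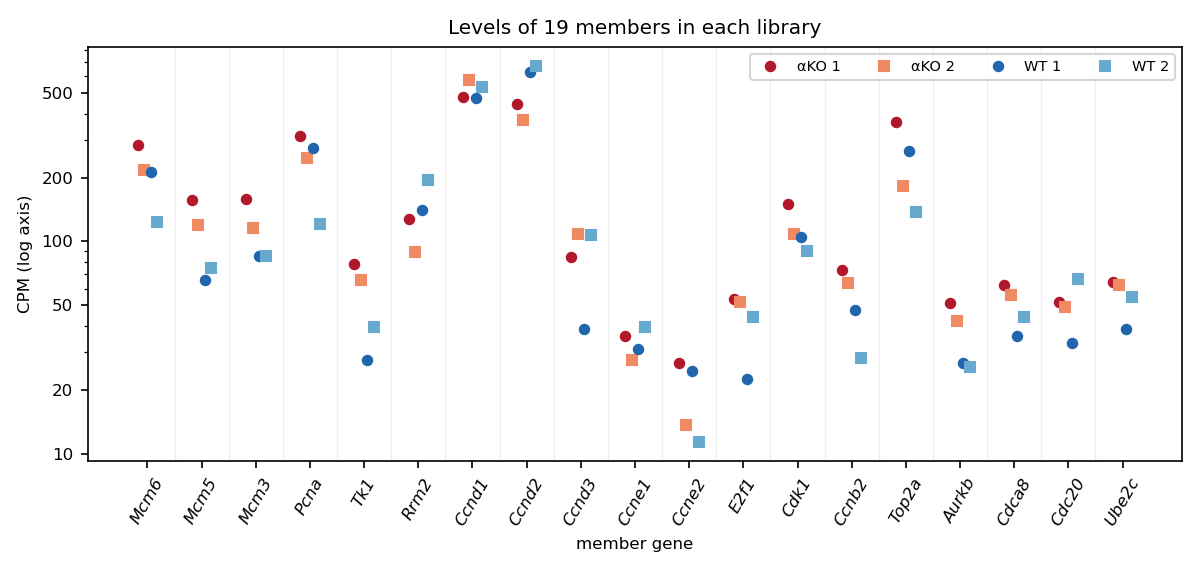
CPM (log axis) of 19 members in αKO replicates 1 and 2 (red circle, orange square) and WT replicates 1 and 2 (dark blue circle, light blue square), ordered by role. Mcm5 lies at 119.5 to 156.6 CPM in αKO and 65.66 to 74.9 CPM in WT, and Ccnd2 at 373.8 to 445.5 and 626.9 to 672.2 CPM.

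All 7 genes of mitotic entry had a log2 fold change above 0 (0.16 to 0.85, median 0.39), as did 6 on the scale of TPM, where Ccnb1 was below. Without αKO replicate 1 the median was 0.15 with 5 of 7 above 0, and without αKO replicate 2 it was 0.61. In 2 of the 7 (28.57%), Cdk1 and Ccnb2, both αKO libraries lay above both WT libraries, against 17.1% of all genes. Ccnb2 (chr9:70407692-70421547), cyclin B2 and partner of CDK1, was at 73.28 and 63.67 CPM in αKO and at 47.64 and 28.33 CPM in WT (68.5 ± 6.80 and 38.0 ± 13.7, SD, n = 2 each). Its αKO replicates were close together and its WT replicates were not. The log2 fold change was 0.85 (standard error 0.370, a 1.80-fold level, edgeR adjusted p = 0.932), and 0.49 to 1.30 without each library in turn. Cdk1, the kinase that drives mitosis, was at 150.6 and 108.2 CPM in αKO and at 104.8 and 89.84 CPM in WT. αKO replicate 2 was only slightly above WT replicate 1, and the log2 fold change of 0.41 (standard error 0.311, edgeR adjusted p = 1) was 0.15 without αKO replicate 1. The remaining genes are the cyclins Ccna2 and Ccnb1, the transcription factor Foxm1 and the kinases Plk1 and Aurka, and their genotypes overlapped. Plk1 was at 59.41 and 61.89 CPM in αKO and at 28.17 and 64.66 CPM in WT, with only WT replicate 1 apart. Ccnb1 shares 23.4% of its 50-base words with other genes, most of all with the pseudogene Ccnb1-ps.

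The 13 genes of chromosomes and spindle had log2 fold changes of 0.17 to 0.84, all above 0 (median 0.43, with Tpx2 alone below 0 on the scale of TPM), and without αKO replicate 1 their median moved farther than that of the other roles. It was then -0.10 and 5 of 13 were above 0. Leaving out WT replicate 2 gave a median of 0.03 with 7 above 0, and leaving out WT replicate 1 gave 0.85. Their sum was 1570 and 955.9 CPM of the library total in αKO and 1292 and 760.7 in WT, so that WT replicate 1 was above αKO replicate 2. In 4 of the 13 (30.77%), Aurkb, Birc5, Cdca8 and Bub1b, both αKO libraries lay above both WT libraries, against 17.1% of all genes. Aurkb (chr11:69045647-69051664), the kinase of the chromosomal passenger complex, was at 51.26 and 42.32 CPM in αKO and at 26.85 and 25.6 CPM in WT (46.8 ± 6.32 and 26.2 ± 0.890, SD, n = 2 each). Its libraries did not overlap between genotypes, and the log2 fold change was 0.84 (standard error 0.306, a 1.78-fold level, edgeR adjusted p = 0.902), with 0.69 to 0.98 without each library in turn. Cdca8, borealin of that complex, was at 62 and 55.88 CPM in αKO and at 35.73 and 44.26 CPM in WT. Its log2 fold change was 0.56 (standard error 0.301, edgeR adjusted p = 0.979), and 0.44 to 0.68 without each library in turn. Birc5, survivin of the same complex, was at 73.55 and 59.79 CPM in αKO and at 51.46 and 41.8 CPM in WT, and again both αKO libraries were higher. Bub1b, a kinase of the spindle checkpoint, was at 91.23 and 63.51 CPM in αKO and at 62.06 and 43.49 CPM in WT, with αKO replicate 2 barely above WT replicate 1.

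Top2a, topoisomerase II of condensing chromosomes, had a wider gap between replicates than between genotypes. It was at 364.2 and 181.7 CPM in αKO and at 267.1 and 138.3 CPM in WT (273 ± 129 and 203 ± 91.0, SD, n = 2 each). The log2 fold change of 0.43 (standard error 0.502, edgeR adjusted p = 1) was -0.16 without αKO replicate 1 and -0.01 without WT replicate 2. Mki67, the gene of the proliferation antigen Ki-67, was nearly the same, at 364.2 and 193.9 CPM in αKO and at 279.7 and 125.2 CPM in WT. Bub1, another checkpoint kinase, was at 56.74 and 25.18 CPM in αKO and at 54.12 and 18.71 CPM in WT, which makes the replicates differ more than the genotypes. Cenpe and Cenpf, proteins of the kinetochore, and Kif11, Kif20a, Nusap1 and Tpx2, which build or move the spindle, also overlapped between genotypes. Of the exon bases of Kif20a 29.3% lie under Cdc23 on the other strand.

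For mitotic exit, Ube2c, the ubiquitin-conjugating enzyme of the anaphase-promoting complex, was at 64.44 and 62.62 CPM in αKO and at 38.65 and 54.62 CPM in WT. The αKO libraries were close together and above both WT libraries, with a log2 fold change of 0.45 (standard error 0.318, edgeR adjusted p = 1). Of its exon bases 22.8% lie under Tnnc2 on the other strand. Cdc20, the activator of that complex, was at 51.87 and 48.86 CPM in αKO and at 33.18 and 66.7 CPM in WT. The WT replicates enclosed both αKO libraries, and the log2 fold change of 0.01 (standard error 0.418, edgeR adjusted p = 1) moved to -0.38 when WT replicate 1 was left out and to 0.56 when WT replicate 2 was. It was -0.07 with library sizes alone and -0.11 with the GC offset.

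Genes of the same processes outside the 43 were counted in the same way. Of 47 other replication genes, 44 had a log2 fold change above 0 (median 0.33), 0 at an unadjusted p under 0.05, and in 16 both αKO libraries lay above both WT libraries, against 17.1% of all genes. Of 65 other mitosis genes tested, 59 were above 0 (median 0.34), 5 of them at an unadjusted p under 0.05, against 2.81% of all genes. In 17 of the 65 (26.15%) both αKO libraries lay above both WT libraries, against 17.1% of all genes. Without αKO replicate 1 the medians were 0.18 and -0.00, beside 0.37 for the licensing and helicase members and -0.10 for those of chromosomes and spindle. Lig1, the ligase that joins Okazaki fragments, was at 91.42 and 75.37 CPM in αKO and at 49.96 and 52.77 CPM in WT, and its log2 fold change was 0.70 (standard error 0.286, edgeR adjusted p = 0.932). Timeless, a protein that protects the fork, was at 30.37 and 29.05 CPM in αKO and at 14.42 and 19.55 CPM in WT. Its log2 fold change was 0.81 (edgeR adjusted p = 0.932). Cdc25b, a phosphatase that activates CDK1, was at 63.11 and 52.05 CPM in αKO and at 31.8 and 24.67 CPM in WT, a 2.04-fold higher level (edgeR adjusted p = 0.902). Incenp, the scaffold that holds the kinase encoded by Aurkb, was at 159 and 135 CPM in αKO and at 80.49 and 87.8 CPM in WT, with a log2 fold change of 0.81 (edgeR adjusted p = 0.902).

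The regulators upstream were mixed. The 20 genes of brakes and the RB family had 10 above 0 and 10 below, with a median of 0.02, and 4 lay wholly above and 4 wholly below WT, against 17.1% and 16% of all genes. Of the 20, 2 were higher in αKO at an edgeR unadjusted p under 0.05, against 2.81% of all genes, and 0 were lower, against 2.59%. These 2, with the lowest p values of the list, encode inhibitors of CDK4 and CDK6. Cdkn2d, which encodes p19, was at 33.31 and 36.96 CPM in αKO and at 13.75 and 18.09 CPM in WT (log2 fold change 1.14, standard error 0.337). Cdkn2c, which encodes p18, was at 48.93 and 77.91 CPM in αKO and at 29.55 and 33.68 CPM in WT (log2 fold change 1.00, standard error 0.358). With the GC offset the log2 fold change was 0.91 for Cdkn2d and 0.56 for Cdkn2c. Of 14 other E2F and MuvB genes tested, 10 were above 0 (median 0.12), and 3 lay wholly above WT and 2 wholly below, against 17.1% and 16% of all genes. At an edgeR unadjusted p under 0.05, 1 of them was higher and 0 were lower, against 2.81% and 2.59% of all genes. E2f2, an activator, was at 32.24 and 33.81 CPM in αKO and at 17.87 and 12.32 CPM in WT (log2 fold change 1.13, standard error 0.355). E2f8, a repressor of E2F targets, was at 38.91 and 32.16 CPM in αKO and at 21.57 and 20.9 CPM in WT (log2 fold change 0.74, standard error 0.314). With the GC offset the log2 fold change was 0.71 for E2f2 and 0.74 for E2f8. Among 10 other G1 kinases and cyclins 5 were above 0 (median 0.00), and 0 had an edgeR unadjusted p under 0.05, against 5.39% of all genes. The lowest p values there were those of Cdk2, at 46.23 and 38.97 CPM in αKO and at 35.06 and 33.6 CPM in WT, and of Myc, at 44.51 and 57.25 CPM in αKO and at 47.57 and 83.72 CPM in WT, whose log2 fold change of -0.37 was 0.06 without WT replicate 2. Nothing in these lists passed the adjusted threshold of 0.05 in edgeR.

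**Figure D5:**
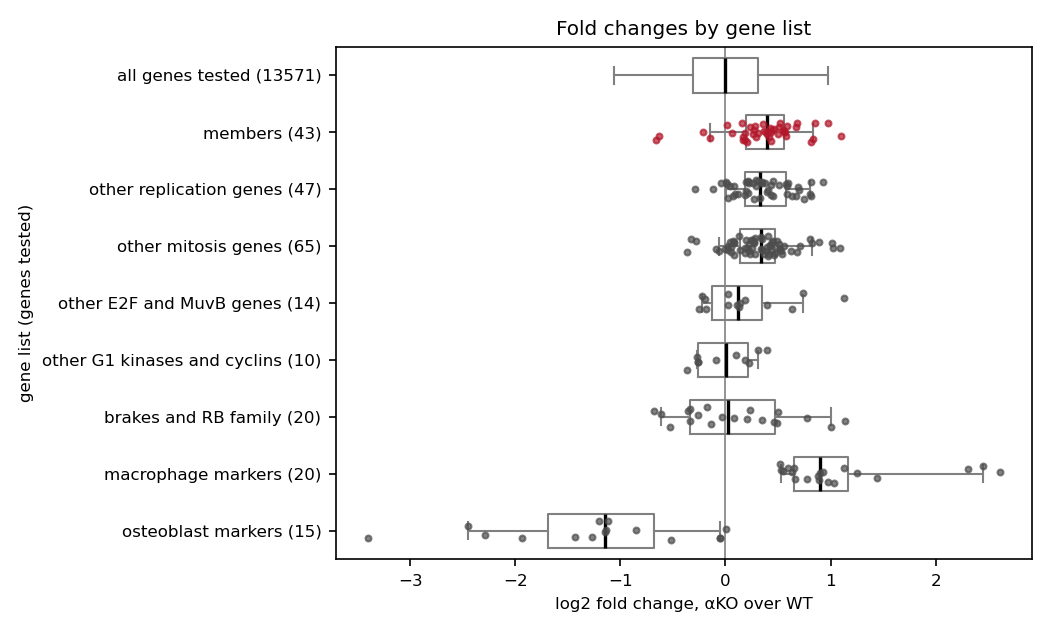
Log2 fold change (αKO over WT) of each gene in the 43 members, in 5 other cell cycle lists and in the macrophage and osteoblast markers (points), with boxes from the lower to the upper quartile, the median as a line and whiskers from the 5th to the 95th percentile, beside all 13571 genes tested (no points). The medians are 0.39 for the members, 0.33 for other replication genes, 0.34 for other mitosis genes, 0.02 for brakes and the RB family, 0.90 for macrophage markers and -1.15 for osteoblast markers.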

How the data were processed

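Per the submitters' notes, the authors used Trimmomatic 0.35, HTSeq 0.9.1 on the build mm10, and DESeq2 1.16.1 under R 3.4.0. The aligner, annotation and strand setting are not given in the sources used here. Raw counts deposited by the authors were the main input, and TPM values deposited by the authors gave levels per length. Their normalized counts and their comparison columns, which hold fold changes and p-values, were not used. Genes passing edgeR's filterByExpr (minimum count 10) were kept (13571 of 37411), scaled by TMM and compared by the quasi-likelihood test of edgeR 4.0.16 in R 4.3.3, with Benjamini-Hochberg adjustment over all genes kept. GC content came from GENCODE vM21 transcripts.

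Values in every library are given for the most abundant member of each role by TPM, the 2 members of each role with the smallest p and all members of the G1 role, and for 2 genes by p of each other list. Further members were named after their values were seen. Members and lists were chosen with earlier results of these data known. Alternatives were DESeq2 1.42.0, limma 3.58.1, the likelihood ratio test, other scalings, no filter, TPM, a replicate block, leaving out each library and, chosen after the data were seen, a GC offset.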

Additional observations from a re-analysis of the deposited data

How the results depend on the processing

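Over all genes, calls at an adjusted p under 0.05 were 0 in the main comparison, 50 with DESeq2, 28 with the likelihood ratio test, 0 with limma voom and 1 to 806 without each library in turn (806 without WT replicate 1 and 678 without WT replicate 2). Members at an unadjusted p under 0.05 numbered 3, 10 with the GC offset (23.3%, against 11.4% of all genes) and 0 to 15 without each library in turn (15 without WT replicate 1 and 13 without WT replicate 2, which are 34.9% and 30.2% of members against 20.8% and 22.8% of all genes tested, and 0 without either αKO library, against 2.14% and 1.65%). The replicate numbers are shared by the genotypes but nothing says that they pair the cultures. With a replicate block there was 1 call over all genes, and the median of the members was 0.42. In that fit 5 members had an unadjusted p under 0.05 (11.6%, against 11.1% of all genes). With the replicate block and the GC offset together 14 members did (32.6%, against 13.4%), and the median was 0.36. Across genes, the differences between replicates 1 and 2 of the genotypes correlated at 0.487. Without each library in turn the median of the members ran from 0.18 to 0.64 and the number above 0 from 25 to 38. Library sizes alone gave a median of 0.32 with 37 above 0, and TPM with a pseudocount of 1 or 0.1 gave medians of 0.25 with 34 above 0, where the median of all genes was -0.11 and -0.13 (-0.09 with library sizes alone). Of the 19 members picked by level, by p or as part of the G1 role, 7 changed sign in some alternative. Ccnd1 was at -0.02 with library sizes alone and -0.07 to 0.18 without each library in turn, and Cdc20 at -0.07 with library sizes alone, -0.11 with the GC offset, -0.12 with the block and the offset, and -0.38 to 0.56 without each library in turn. Without each library in turn Ccnd3 ran from -0.14 to 1.28, Ccne1 from -0.35 to 0.04, Ccne2 from -0.40 to 0.85, Pcna from -0.01 to 1.24 and Top2a from -0.16 to 1.00. Among the further members with printed values, Rrm1, Cdt1, Plk1, Mki67 and Bub1 also changed sign when some library was left out. Gins2, Tyms, Birc5 and Bub1b did not. An adjusted p under 0.05 was reached by Ccnb2 (0.048) and Pcna (0.0498) without WT replicate 1, and by Ccnd3 (0.0409) and Tk1 (0.033) without WT replicate 2, 4.65% of members each time, against 5.74% and 4.88% of all genes. In these fits the remaining WT library is assumed to vary as the αKO libraries do. Counts of 295 to 17465 per member and library make counting error small beside the spread between replicates, so 2 libraries per genotype and not depth limit these values.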
